A study of Mus musculus with 34 samples.

Results

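Liver RNA of WT mice was compared between 24 h and 6 h after partial hepatectomy (PHx). The comparison rests on 10 of the 34 livers of the series, 4 collected at 24 h and 6 collected at 6 h. These groups follow the sample labels. The figure legends of the paper give other sizes for both of them. All mice were male, on the C57/Bl6 background and 8 to 12 weeks old, and surgery removed the left lateral and median lobes, 70% of the liver. WT mice carried floxed Sirt1 (exon 4) without a Cre, and SIRTintKO mice carried the same alleles with Villin-Cre, which deletes them in the intestinal epithelium and leaves liver Sirt1 untargeted. The other 24 livers were WT at 0 h (6) and SIRTintKO at 0 h (6), 6 h (5) and 24 h (7). They help to estimate the spread between livers, and the SIRTintKO livers at 6 h and 24 h serve a test of the difference between genotypes.

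Whole liver was sequenced as stranded polyA RNA, so a value averages all cell types, and fewer cells of a type and less RNA per cell cannot be told apart. Total counts were 16335950, 19561384, 18076906 and 18159990 in the 24 h livers (replicates 1 to 4). In the 6 h livers they ran from 14892098 to 18007069 with a median of 17181052. Levels are CPM, counts relative to the size of the library, with library sizes adjusted by the trimmed mean of M values (TMM). For each gene the 24 h values are given for replicates 1, 2, 3 and 4 in that order, and the 6 h values as the lowest, the median and the highest of 6 livers. A gene is called when its edgeR adjusted p is under 0.05 and its log2 fold change (24 h over 6 h) is beyond 1 in either direction.

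After PHx, hepatocytes leave quiescence under cytokines such as IL-6 and TNF, switch on immediate-early transcription factors, and go through G1 towards DNA synthesis while the liver remnant goes on serving metabolism. The hepatocyte also holds a circadian clock, in which BMAL1 with CLOCK or NPAS2 drives Per, Cry, Nr1d1 and Dbp family genes. The hour of surgery is not stated in the sources used here, so hours since PHx and time of day cannot be told apart.

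The 24 h livers were not alike. In a principal component analysis of the 10 WT livers, PC1 (39.3% of the variance) put 24 h replicates 1 and 2 at 89.0 and 104.7, replicates 3 and 4 at −25.3 and −30.6, and the 6 h livers from −30.1 to −15.5. PC2 (18.3%) put the 24 h livers at 28.95, −21.3, 54.8 and 61.1 and the 6 h livers from −34.3 to −3.99. Pearson's r of log2 CPM over genes was 0.953 between 24 h replicates 1 and 2, 0.983 between replicates 3 and 4, and 0.889 to 0.918 across these pairs. Among the 15 pairs of 6 h livers it ran from 0.953 to 0.980. The 10 most abundant genes took 23.4, 25.2, 17.8 and 17.2% of counts in the 24 h livers and 18.96 to 21.6% in the 6 h livers.

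With all 34 livers in the analysis, PC1 (40.7%) put WT 24 h replicates 1 and 2 at 86.2 and 95.9 and replicates 3 and 4 at −8.02 and −17.6. WT livers at 6 h lay from 11.6 to 32.5 and WT livers at 0 h from −76.8 to −51.0. SIRTintKO livers at 24 h lay from 49.7 to 80.3, apart from replicate 5 at 8.10. Values are therefore given for every 24 h liver, and results also without WT 24 h replicates 1 and 2, an alternative chosen after seeing the data. What separated these livers was not tested. The labels give no day of collection. A difference in day, in the operation or in the labelling of a liver cannot therefore be told apart from a difference between animals. This bears on every 24 h value. The library name of WT 6 h replicate 6 falls among those of the 24 h livers. Its mean Pearson's r was 0.958 with the other WT 6 h livers and 0.920 with the WT 24 h livers. Whether its label is right was not tested.

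**Figure D1:**
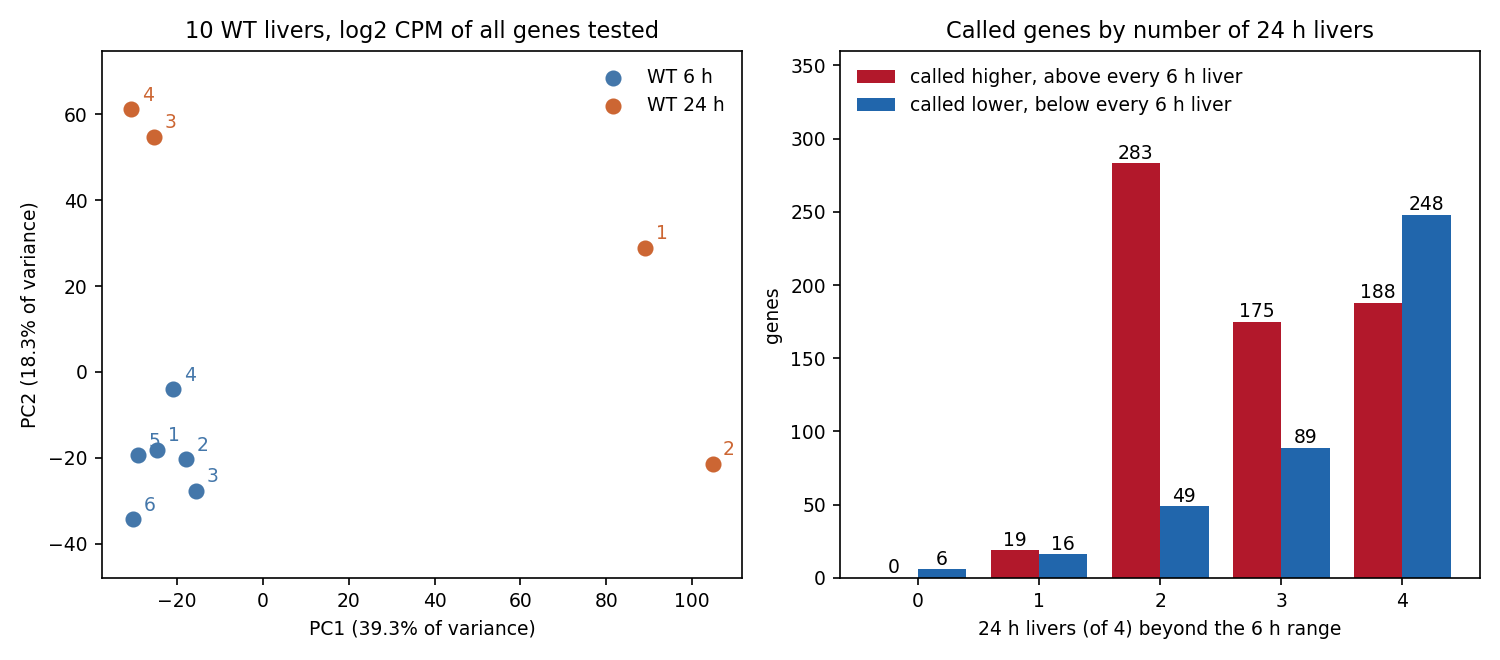
Position of the 10 WT livers on the first 2 principal components of log2 CPM, and numbers of called genes by how many 24 h livers lay beyond the 6 h range.

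In edgeR, 1073 of the 14980 genes tested were called (7.16%), 665 higher at 24 h (4.44%) and 408 lower (2.72%). Counts of genes called in the lists below are to be read against these shares. The median log2 fold change of all genes was 0.01. At an edgeR adjusted p under 0.05 alone, 1505 genes were higher and 963 lower. DESeq2 called 708 higher and 494 lower. The SEs and adjusted p-values given for genes come from the fit of all 34 livers, whose groups share 1 estimate of the spread. A fit of the 10 WT livers alone called 231 higher and 175 lower. Of the called genes named by rule and tested there, 46 kept the call and 47 lost it. Lost calls included Bmal1, Ciart, Cps1 and Glul (adjusted p = 0.0512, 0.0880, 0.109 and 0.0735 in edgeR). In 1103 genes (7.36%) all 4 livers at 24 h lay on the same side of the 6 h range, above it in 529 and below it in 574.

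The called genes differed in how many 24 h livers carried the change. Of the 665 called higher, all 4 livers at 24 h exceeded every 6 h liver in 188 (28.3%), 3 did in 175, 2 in 283 (42.6%) and 1 in 19. Replicate 1 exceeded every 6 h liver in 611 of these genes, replicate 2 in 536, replicate 3 in 369 and replicate 4 in 346. Of the 408 called lower, all 4 lay below every 6 h liver in 248 (60.8%), 3 in 89, 2 in 49, 1 in 16 and none in 6. By replicate the counts were 375, 358, 318 and 322. Leaving out 24 h replicate 1 lowered the counts to 422 higher and 239 lower. Leaving out replicates 1 and 2 left 401 of 15619 genes higher (2.57%) and 328 lower (2.1%), with a median over all genes of −0.04.

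The 10 largest changes in each direction were picked among called genes whose groups do not overlap, so that all 4 livers at 24 h share them by selection. Lipg was the largest decrease of that selection, and the other genes described here are not its largest changes. Ngp (5.46) and Dnah1 (4.00) exceeded Chka and Osgin1, and neither was called without replicates 1 and 2 (1.82 and 2.22). Among lower genes, Atp6v0a4 (−3.42), Ttll8 (−3.20), G0s2 (−3.05), BB123696 (−3.02), Fabp12 (−2.96) and Sprr2a2 (−2.8005) exceeded Rab30 and Eif4ebp3. Without replicates 1 and 2, Atp6v0a4 (−4.59), Ttll8 (−2.74) and BB123696 (−2.78) were also called. G0s2 (−2.35), Fabp12 (−2.40) and Sprr2a2 (−2.03) were not called there. Chka encodes choline kinase, the entry to phosphatidylcholine synthesis, and Osgin1 an oxidative stress response protein. Chka stood at 421, 643, 223 and 265 CPM at 24 h and 13.3, 24.5 and 40.3 at 6 h, and Osgin1 at 461, 197, 229 and 341 against 10.1, 20.03 and 46.6. Every 24 h liver was above every 6 h liver for both genes. Their log2 fold changes were 3.90 (SE 0.39, adjusted p = 6.85e-08 in edgeR) and 3.73 (SE 0.69, adjusted p = 4.62e-04 in edgeR), and 3.23 and 3.62 without replicates 1 and 2. Lipg, which encodes endothelial lipase, stood at 1.17, 1.31, 0.943 and 0.896 CPM at 24 h and 9.02, 16.3 and 23.6 at 6 h. Rab30, a Golgi GTPase gene, stood at 12.1, 19.9, 5.76 and 6.62 against 46.6, 82.05 and 96.7, and the translation repressor gene Eif4ebp3 at 39.5, 31.7, 31.3 and 18.2 against 131, 205 and 253. For these 3 genes every 24 h liver was below every 6 h liver. In edgeR the log2 fold changes were −3.92 (SE 0.42, adjusted p = 3.33e-07) for Lipg, −2.80 (SE 0.41, adjusted p = 2.78e-05) for Rab30 and −2.72 (SE 0.53, adjusted p = 7.19e-04) for Eif4ebp3, and −4.14, −3.63 and −3.01 without replicates 1 and 2.

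Lratd1, from the same selection, was less even. It stood at 18.02, 57.5, 1.20 and 1.05 CPM at 24 h and 0.146, 0.380 and 0.957 at 6 h, so replicates 3 and 4 cleared the highest 6 h liver by little. It was called higher at 5.30 (SE 0.82, adjusted p = 6.49e-05 in edgeR), 3.80 without replicate 2 and 1.21 without replicates 1 and 2, where the call was lost (adjusted p = 0.331 in edgeR).

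Genes of the circadian clock changed in both directions. Of 20 clock and clock output genes tested, 4 were called higher and 4 lower, with a median log2 fold change of −0.30 (0.01 over all genes). The number called higher was 2 without 24 h replicate 2 or 6 h replicate 3 or 6, and the number called lower 2 without 24 h replicate 3. Npas2 and Bmal1 encode partners on the driving side of the clock. Npas2 stood at 3.14, 2.63, 6.96 and 6.57 CPM at 24 h and 0.0778, 0.257 and 0.837 at 6 h, and Bmal1 at 9.28, 7.54, 24.7 and 24.04 against 2.92, 5.30 and 8.37. No 24 h value of Npas2 fell in the 6 h range, whereas for Bmal1 replicate 2 did. The log2 fold change was 3.74 (SE 0.48, adjusted p = 4.53e-06 in edgeR) for Npas2 and 1.56 (SE 0.44, adjusted p = 0.0140 in edgeR) for Bmal1, and 4.22 and 2.13 without replicates 1 and 2.

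Of the 4 clock genes called lower, 3 are described here. Dbp, a PAR-bZIP output factor, stood at 4.80, 9.66, 1.62 and 1.64 CPM at 24 h and 12.5, 18.1 and 23.3 at 6 h. Ciart, a repressor of BMAL1 activity, stood at 1.84, 10.9, 0.419 and 0.199 against 16.4, 18.9 and 40.1. All 24 h livers lay below the 6 h range for both genes, with replicate 2 the closest to it. Log2 fold changes were −2.03 for Dbp (SE 0.54, adjusted p = 0.00978 in edgeR) and −2.75 for Ciart (SE 0.69, adjusted p = 0.00674 in edgeR). They were −2.74 and −4.80 without replicate 2, and −3.46 and −6.16 without replicates 1 and 2. The repressor gene Bhlhe41 stood at 1.17, 1.9996, 0.157 and 0.0498 against 1.73, 2.92 and 5.25, with replicate 2 inside the 6 h range. Its log2 fold change of −1.87 (adjusted p = 0.0186 in edgeR) was −2.76 without replicate 2, and without replicate 3 it was not called (−1.48, adjusted p = 0.0604 in edgeR).

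For 2 further clock repressors the 24 h livers fell on both sides of the 6 h livers. Per1 stood at 55.8, 111, 10.4 and 5.62 CPM at 24 h and 37.6, 51.99 and 59.05 at 6 h, and Nr1d1 at 55.8, 79.4, 20.3 and 18.2 against 31.98, 50.6 and 67.6. Replicate 2 was above the 6 h range for both genes, replicates 3 and 4 were below it, and replicate 1 was inside it. Neither was called, with log2 fold changes of −0.13 (adjusted p = 0.880 in edgeR) and −0.22 (adjusted p = 0.843 in edgeR). Without replicate 3 the values were 0.24 for Per1 and 0.05 for Nr1d1, without replicate 4 0.24 and 0.04, and without replicate 2 Per1 was −1.04. Without replicates 1 and 2, Per1 was called lower (−2.64, adjusted p = 1.91e-04 in edgeR), Nr1d1 was −1.39, and the clock list held 2 genes called higher and 9 lower with a median of −1.37.

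Promoters were read as 300 bases around the start site from the RefSeq annotation of GRCm38.p6. The E-box CACGTG was searched on both strands and found in 5 of the 16 clock genes with a promoter (Bhlhe41, Ciart, Cry1, Per1 and Tef), and in 7.15% of all 32851 promoters. The D-box TTATGTAA was found in 1 (Per3), and in 0.938% of all promoters. Here and below, a list gene counts if any of its promoters holds the motif, while the share of all is counted per promoter. A match is a description of sequence and not evidence of a bound site. The Ciart promoter (chr3:95882179-95882478, minus strand) holds 3 E-boxes, in capitals.
Ciart: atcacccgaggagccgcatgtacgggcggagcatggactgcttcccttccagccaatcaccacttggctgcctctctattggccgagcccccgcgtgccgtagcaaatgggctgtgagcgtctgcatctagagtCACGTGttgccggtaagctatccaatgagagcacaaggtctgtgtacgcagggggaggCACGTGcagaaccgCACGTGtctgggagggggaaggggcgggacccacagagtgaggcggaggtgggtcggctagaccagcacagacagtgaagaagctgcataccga

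Of 21 genes of the G1 phase of the cell cycle, 2 were called higher and 1 lower (14.3%, against 7.16% of all genes). Their median was 0.30. The lower call was lost when any 1 of the 24 h livers was left out, and without 6 h replicate 1, 5 or 6, and 2 were called lower without 6 h replicate 3. Cyclin D1 (Ccnd1), which carries mitogen signals into G1, stood at 45.01, 6.86, 63.8 and 66.2 CPM at 24 h and 12.5, 24.1 and 96.4 at 6 h. Replicate 2 was below every 6 h liver, the other 24 h livers lay inside the 6 h range, and the highest value of all was that of 6 h replicate 2. Ccnd1 was not called (log2 fold change 0.42, SE 0.49, adjusted p = 0.602 in edgeR) and was 1.11 without 6 h replicate 2. Cdk6, a partner of D cyclins, stood at 37.8, 24.8, 14.3 and 9.56 at 24 h and 4.92, 7.91 and 10.6 at 6 h, and the S-phase transcription factor gene E2f2 at 1.41, 1.77, 1.78 and 1.29 against 0.239, 0.377 and 0.798. Only replicate 4 of Cdk6 fell in the 6 h range. Both were called higher, Cdk6 at 1.45 (SE 0.28, adjusted p = 5.90e-04 in edgeR) and E2f2 at 1.82 (SE 0.46, adjusted p = 0.00687 in edgeR). Without replicates 1 and 2, Cdk6 was 0.60 and not called and E2f2 1.79.

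Among DNA replication genes 8 of the 37 tested were called higher, with a median of 0.40, or 0.53 with 6 called higher when replicates 1 and 2 were left out. Without replicate 2 alone 5 were called. Mcm5, a subunit of the replicative helicase, stood at 1.54, 2.57, 5.50 and 2.24 CPM at 24 h and 0.419, 0.899 and 1.53 at 6 h, and Rpa2, which coats single-stranded DNA, at 10.5, 17.996, 6.39 and 5.13 against 2.93, 3.89 and 5.03. All 24 h values exceeded the 6 h values, by little for Mcm5 in replicate 1 and for Rpa2 in replicate 4. The log2 fold change of Mcm5 was 1.71 (SE 0.39, adjusted p = 0.00339 in edgeR) and 2.09 without replicates 1 and 2. For Rpa2 it was 1.33 (SE 0.22, adjusted p = 1.86e-04 in edgeR), 0.90 and no longer called without replicate 2, and 0.53 without replicates 1 and 2. Mcm2, another helicase subunit, stood at 1.72, 2.86, 5.66 and 2.69 against 1.71, 2.26 and 4.17, with only replicate 3 above the 6 h range, and was not called (0.32, adjusted p = 0.609 in edgeR, −0.07 without replicate 3).

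Of 28 mitosis genes, 21 were abundant enough to test, with a median of −0.60. None was called by edgeR, 2 had an unadjusted p under 0.05, and DESeq2 called 1 lower. Mki67, a marker of cycling cells, stood at 0.922, 0.514, 0.576 and 0.199 CPM at 24 h and 0.311, 0.727 and 3.42 at 6 h. Replicate 4 was below the 6 h range, which the other 24 h livers did not leave, and 6 h replicate 6 held the highest value. Mki67 was not called (−0.93, adjusted p = 0.269 in edgeR) and was −0.14 without 6 h replicate 6.

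Both strands were searched for E2F sites, written TTTCCCGC and TTTGGCGC, and for the cell cycle homology region TTTGAA. Of 32 DNA replication genes with a promoter, 6 held the first form (1.07% of all promoters), 5 the second (0.514%) and 4 the homology region (17.9%). The homology region was found in 16 of 23 mitosis genes, and neither E2F form in any of them. The Mcm5 promoter (RefSeq, GRCm38.p6, chr8:75109259-75109558, plus strand) holds 1 E2F site of the second form on the opposite strand, in capitals.
Mcm5: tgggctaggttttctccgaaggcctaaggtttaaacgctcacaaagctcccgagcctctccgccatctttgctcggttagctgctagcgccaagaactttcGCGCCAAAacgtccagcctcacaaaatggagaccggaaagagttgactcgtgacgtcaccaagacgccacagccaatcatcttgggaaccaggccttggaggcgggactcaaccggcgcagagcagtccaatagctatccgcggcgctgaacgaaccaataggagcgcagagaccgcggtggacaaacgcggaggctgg

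Of 18 p53 target and Gadd45 genes, 4 were called higher, with a median of 0.19 that became −0.35 without replicates 1 and 2. Without replicate 2 alone 1 was called and the median was −0.01. Gadd45a, a growth arrest gene, stood at 14.8, 48.5, 6.13 and 4.73 CPM at 24 h and 1.84, 2.09 and 2.74 at 6 h, above the 6 h range in all 4 livers. Its log2 fold change was 3.08 (SE 0.58, adjusted p = 5.27e-04 in edgeR), 1.98 without replicate 2, and 1.32 without replicates 1 and 2, where it was not called (adjusted p = 0.171 in edgeR). Cdkn1a (p21), which inhibits cyclin kinases, stood at 129.7, 214, 90.3 and 69.2 against 68.3, 113 and 163, with only replicate 2 above the 6 h range. It was not called (0.11, adjusted p = 0.865 in edgeR) and fell below 0 without replicate 2 (−0.26).

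Immediate-early genes were high in part of the 24 h livers. Of 20 genes of this list, 10 were called higher, with a median of 1.24. The number was 5 without 24 h replicate 1, 5 without replicate 2 and 6 without 6 h replicate 6. The list had 1 gene called higher and a median of −0.44 without replicates 1 and 2. Egr1 and Atf3 encode transcription factors induced within minutes to hours of injury, and Ier3 an early response protein. Egr1 stood at 238, 1015, 316 and 49.2 CPM at 24 h and 21.6, 34.2 and 76.6 at 6 h, with replicates 1, 2 and 3 above the 6 h range and replicate 4 inside it. Atf3 stood at 54.8, 22.4, 1.83 and 1.99 against 1.90, 3.09 and 6.04, and Ier3 at 103, 182, 2.15 and 1.39 against 3.28, 4.18 and 16.1. For these 2 genes replicates 1 and 2 exceeded every 6 h liver. Replicates 3 and 4 lay below the 6 h range, except for replicate 4 of Atf3, which was just inside it.

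In edgeR the log2 fold change of Egr1 was 3.29 (SE 0.62, adjusted p = 5.57e-04), 2.30 without replicate 2 and 2.14 without replicates 1 and 2. Atf3 was called higher (2.54, SE 0.67, adjusted p = 0.00947 in edgeR), was not called without replicate 1 (1.36, adjusted p = 0.197 in edgeR), and was −0.86 without replicates 1 and 2. Ier3 was called higher (3.36, SE 0.88, adjusted p = 0.00900 in edgeR), was not called without replicate 2 (2.36, adjusted p = 0.0777 in edgeR), and was −1.98 without both. Myc, which drives growth genes, stood at 23.2, 16.5, 9.64 and 4.73 CPM at 24 h and 4.20, 6.42 and 8.61 at 6 h, with replicates 1, 2 and 3 above the 6 h range, and was not called (1.06, adjusted p = 0.209 in edgeR).

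Of 17 IL-6 receptor and STAT3 feedback genes, 2 were called higher (11.8%, against 7.16% of all genes called). Their median was 0.44, or −0.05 without replicates 1 and 2. The calls were 1 higher without 24 h replicate 1, 1 higher and 1 lower without replicate 2, 4 higher and 1 lower without replicate 3, and 4 higher without replicate 4. Socs3, the feedback inhibitor of STAT3 signaling, stood at 244, 265, 49.1 and 55.7 CPM at 24 h and 66.2, 80.4 and 93.6 at 6 h, replicates 1 and 2 above the 6 h range and replicates 3 and 4 below it. Socs3 was not called (0.94, SE 0.57, adjusted p = 0.269 in edgeR) and was −0.61 without replicates 1 and 2. Of 18 TNF and NF-kB genes, 5 were called higher (median 0.89, or 0.06 without replicates 1 and 2), with 2 called without replicate 1 and 3 without replicate 2. The chemokine gene Cxcl2 stood at 3.01, 36.6, 0.733 and 0.0498 against 0.233, 0.553 and 0.837, with replicates 1 and 2 above the 6 h range. Its log2 fold change of 4.25 (SE 1.04, adjusted p = 0.00557 in edgeR) rested on replicate 2, without which it was 1.24 and not called (adjusted p = 0.464 in edgeR).

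None of 22 acute-phase genes was called by edgeR (median −0.07), 3 had an unadjusted p under 0.05, and DESeq2 called 1 lower. By edgeR 1 was called higher without 24 h replicate 2, 3 or 4 or without 6 h replicate 1, 4, 5 or 6, and the median was 0.08 without 24 h replicate 3 or 4 and 0.01 without 6 h replicate 5. Serum amyloid A1 (Saa1) stood at 22922, 29929.9, 14937 and 13412 CPM at 24 h and 8741, 20214 and 45928 at 6 h, all 24 h values inside the 6 h range. The log2 fold change of Saa1 was −0.17 (adjusted p = 0.859 in edgeR) and 0.14 without 6 h replicate 6. Lcn2, which binds siderophores, stood at 12583, 7802, 2442 and 1789 against 1912, 3739 and 4511. Replicates 1 and 2 were above the 6 h range and replicate 4 was below it, and Lcn2 was not called (0.77, adjusted p = 0.320 in edgeR, −0.77 without replicates 1 and 2).

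The integrated stress response list had 7 of 24 genes called higher and a median of 0.62, against 1 called lower and −0.48 without replicates 1 and 2. Without replicate 2 alone 2 were called higher and 1 lower. Psat1, an enzyme of serine synthesis, stood at 24.2, 55.7, 1.26 and 1.39 CPM at 24 h and 1.32, 2.02 and 4.97 at 6 h, with replicates 1 and 2 above the 6 h range. Psat1 was called higher (3.09, SE 0.71, adjusted p = 0.00329 in edgeR), but not without replicate 2 (1.90, adjusted p = 0.0697 in edgeR), and was −0.86 without replicates 1 and 2. No chaperone gene of the unfolded protein response was called by edgeR or DESeq2 among 23 (median 0.35), and 8 had an unadjusted p under 0.05. Without 24 h replicate 3 or 4 edgeR called 1 higher. The element TGACGTGG, searched on both strands, was in 0.676% of all promoters and in none of the 20 list genes with a promoter, and other elements of this response were not searched. Hspa5 (BiP) stood at 1473, 2828, 1328 and 1078 against 894, 1368 and 1668, only replicate 2 above the 6 h range, at a log2 fold change of 0.35 (adjusted p = 0.413 in edgeR) and −0.01 without replicate 2. Ribosome biogenesis had no gene called by edgeR or DESeq2 among 45 (median −0.14), with 11 at an unadjusted p under 0.05.

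With all 4 livers at 24 h, cholesterol synthesis and LDL uptake genes had the largest share of calls among the metabolic lists. Of these 24 genes, 13 were called higher, with a median of 1.22. Without replicate 1 the number was 2, and the share was no longer the largest. The counts became 1 higher and 1 lower and the median 0.08 without replicates 1 and 2. Hmgcs1, an early enzyme of the path, stood at 886, 169.6, 111 and 68.6 CPM at 24 h and 23.3, 44.4 and 83.4 at 6 h, and Fdft1, the first enzyme committed to sterols, at 279, 119, 52.1 and 33.3 against 11.3, 31.3 and 42.4. Replicate 1 was the highest of the 10 livers for both and replicate 2 was next, and replicate 4 of each fell in the 6 h range. Hmgcs1 was called at 2.79 (SE 0.55, adjusted p = 8.06e-04 in edgeR) and not without replicate 1 (1.41, adjusted p = 0.0514 in edgeR). Fdft1 was called at 2.11 (SE 0.45, adjusted p = 0.00186 in edgeR) and was 1.32 without replicate 1. Without replicates 1 and 2 neither was called, at 1.004 for Hmgcs1 and 0.61 for Fdft1.

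The sterol element TCACCCCAC was searched on both strands and found in 1 of the 16 cholesterol genes with a promoter (Hmgcs1), and in 0.551% of all promoters. It is shown in capitals in the RefSeq promoter of Hmgcs1 (GRCm38.p6, chr13:119690101-119690400, plus strand).
Hmgcs1: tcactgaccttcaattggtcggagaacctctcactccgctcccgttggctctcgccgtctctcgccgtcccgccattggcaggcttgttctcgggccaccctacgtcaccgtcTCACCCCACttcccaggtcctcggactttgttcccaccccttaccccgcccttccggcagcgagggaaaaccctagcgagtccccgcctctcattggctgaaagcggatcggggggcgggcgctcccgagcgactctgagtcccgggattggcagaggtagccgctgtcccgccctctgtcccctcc

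De novo lipogenesis (median −0.03) had 1 gene called higher and 2 lower of 18 (16.7%, against 7.16% of all genes called). The number called lower was 1 without 24 h replicate 2 or 6 h replicate 3, the number called higher 3 without 24 h replicate 3 or 4 and 2 without 6 h replicate 1, and the median was above 0 without 6 h replicate 1 or 5. Srebf1, which drives lipogenic genes, stood at 41.4, 56.8, 73.05 and 72.7 CPM at 24 h and 17.6, 24.9 and 40.7 at 6 h. Acacb, whose product makes the malonyl-CoA that holds back fatty acid import into mitochondria, stood at 5.53, 6.23, 20.2 and 21.9 against 45.9, 64.4 and 101. The groups did not overlap for either gene. Srebf1 was called higher (1.13, SE 0.23, adjusted p = 0.00124 in edgeR) and Acacb lower (−2.40, SE 0.34, adjusted p = 1.55e-05 in edgeR). They were 1.38 and −1.76 without replicates 1 and 2.

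Of 24 fatty acid oxidation genes, 6 were called lower and the rest were not called, with a median of −0.92. Without replicates 1 and 2 the number was also 6, with a median of −0.66. These were not all the same genes, as Ehhadh lost its call there (−0.96). Cpt1a encodes the mitochondrial import enzyme and Acot2 a mitochondrial acyl-CoA thioesterase. Cpt1a stood at 154, 112, 196 and 239.9 CPM at 24 h and 411, 450.4 and 508 at 6 h, and Acot2 at 5.29, 7.94, 4.24 and 3.73 against 11.6, 17.9 and 23.6. All 24 h livers were below all 6 h livers for both. The log2 fold changes were −1.39 for Cpt1a (SE 0.19, adjusted p = 1.41e-05 in edgeR) and −1.72 for Acot2 (SE 0.43, adjusted p = 0.00652 in edgeR), and −1.08 and −2.13 without replicates 1 and 2.

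Among fatty acid uptake and lipid droplet genes 7 of 17 were called lower and 1 higher, with a median of −0.9996 and of −1.70 without replicates 1 and 2. The number called lower was 4 without replicate 1, and the number called higher 2 without replicate 3 or 4. Lpin1, a phosphatidate phosphatase gene, stood at 76.8, 106, 118 and 49.5 CPM at 24 h and 349, 433 and 527 at 6 h. G0s2, an inhibitor of lipolysis, stood at 2.83, 10.3, 26.8 and 31.8 against 62.4, 118 and 295. All 24 h livers were below the 6 h range for both. Log2 fold changes were −2.31 for Lpin1 (SE 0.34, adjusted p = 3.62e-05 in edgeR, −2.38 without replicates 1 and 2) and −3.05 for G0s2 (SE 0.87, adjusted p = 0.0151 in edgeR). G0s2 lost its call without replicate 1 (−2.67, adjusted p = 0.0628 in edgeR) or replicate 2 (−2.85, adjusted p = 0.0508 in edgeR). Hilpda, which also inhibits lipolysis, was the gene called higher, at 92.4, 206, 5.55 and 4.28 against 5.32, 8.81 and 16.2, replicates 1 and 2 above the 6 h range, replicate 3 at its lower end and replicate 4 below it. Hilpda was at 3.03 (SE 0.58, adjusted p = 6.85e-04 in edgeR), 1.87 without replicate 2, and −0.94 without replicates 1 and 2.

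Of 35 urea cycle and amino acid breakdown genes, 11 were called lower (median −0.64). There were 7 lower without replicate 1, and 7 lower and 1 higher without replicates 1 and 2 (median −0.22). Gpt2, an alanine aminotransferase gene, stood at 293, 117, 234 and 261 CPM at 24 h and 733, 824 and 1320.0 at 6 h. Cps1, which starts the urea cycle, stood at 574, 416, 2598 and 2094 against 2646, 3939 and 4417, and the tyrosine aminotransferase gene Tat at 1085, 3687, 1631 and 1054 against 3767, 4035 and 5388. All 24 h livers were below all 6 h livers for the 3 genes, narrowly so in replicate 3 for Cps1 and replicate 2 for Tat. In edgeR the log2 fold changes were −2.07 for Gpt2 (SE 0.26, adjusted p = 4.02e-06), −1.43 for Cps1 (SE 0.34, adjusted p = 0.00400) and −1.22 for Tat (SE 0.33, adjusted p = 0.00998). Tat was not called without replicate 1 (−1.005, adjusted p = 0.0666 in edgeR). Without replicates 1 and 2, Gpt2 was −1.94, Cps1 −0.70 and not called, and Tat −1.70.

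Glucose metabolism had 3 genes called lower and 2 higher of 21 (median −0.41), with 1 higher without 24 h replicate 1 or 2. Gys2, liver glycogen synthase, stood at 27.8, 23.3, 41.6 and 44.2 CPM at 24 h and 102, 146 and 153 at 6 h, without overlap. Pck1, the control step of gluconeogenesis, stood at 897, 762, 2445 and 1582 against 2136, 3285 and 3918, with replicate 3 inside the 6 h range. Log2 fold changes were −2.02 for Gys2 (SE 0.21, adjusted p = 1.85e-07 in edgeR, −1.70 without replicates 1 and 2) and −1.17 for Pck1 (SE 0.28, adjusted p = 0.00495 in edgeR). Pck1 lost its call without replicate 1 (−0.99) or replicate 2 (−0.95), where the fold fell short of the threshold. The glucose transporter gene Slc2a1 stood at 69.3, 52.6, 12.9 and 9.86 against 7.51, 11.5 and 15.4, with replicates 1 and 2 above the 6 h range and the others inside it. It was called higher (1.65, adjusted p = 0.00222 in edgeR) and was −0.02 without replicates 1 and 2.

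None of 11 genes of the growth hormone and IGF axis was called by edgeR (median −0.19), 3 had an unadjusted p under 0.05, and DESeq2 called 1 higher, as did edgeR without 24 h replicate 3 or 4 or 6 h replicate 1. Igfbp1, an insulin-sensitive IGF binding protein gene, stood at 962, 2208, 400.4 and 138 CPM at 24 h and 731, 1166 and 1896 at 6 h. Replicate 2 was above the 6 h range, replicates 3 and 4 below it and replicate 1 inside it. The log2 fold change was −0.39 (adjusted p = 0.686 in edgeR) and −1.27 without replicate 2.

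The list of bile acid synthesis and FXR genes had 3 of 13 called higher and 1 lower (median −0.33). No gene of the list was called lower without 24 h replicate 2 or 6 h replicate 1. There were 2 called lower without 24 h replicate 3 and 3 without replicate 4. Cyp7a1, the rate-limiting enzyme of the classic path, stood at 0, 0.0571, 15.2 and 13.1 CPM at 24 h and 0.292, 0.592 and 5.77 at 6 h. Cyp8b1, which makes cholic acid, stood at 0.246, 0.800, 147 and 159 against 51.6, 134 and 273. Replicates 1 and 2 were below every 6 h liver for both genes, while replicates 3 and 4 were above the 6 h range for Cyp7a1 and inside it for Cyp8b1. Neither was called, Cyp7a1 at 2.22 (SE 0.96, adjusted p = 0.113 in edgeR) and Cyp8b1 at −0.95 (SE 1.07, adjusted p = 0.589 in edgeR). Cyp7a1 was called higher without 6 h replicate 4 (3.45, adjusted p = 0.0263 in edgeR) and without 24 h replicates 1 and 2 (3.20, adjusted p = 0.0172 in edgeR), where Cyp8b1 was 0.04. Without 24 h replicate 3 Cyp7a1 was 1.56, and without replicate 4 Cyp8b1 was −1.59.

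Other genes of the list changed in either direction. Nr0b2 (SHP), the FXR target that represses Cyp7a1, stood at 43.2, 67.9, 34.3 and 21.1 CPM at 24 h and 4.72, 9.85 and 13.3 at 6 h. Fgfr4, the hepatic receptor of intestinal FGF15, stood at 115, 63.2, 52.4 and 42.8 against 12.9, 26.03 and 33.8. Every 24 h liver was above every 6 h liver for both. The log2 fold changes were 2.15 (SE 0.58, adjusted p = 0.0101 in edgeR) and 1.42 (SE 0.21, adjusted p = 3.99e-05 in edgeR), and 1.57 and 0.90 without replicates 1 and 2, where neither was called. Nr1h4 (FXR) stood at 24.9, 17.9, 65.1 and 60.5 against 48.2, 89.3 and 121, with replicates 1 and 2 below the 6 h range. It was called lower at −1.02 (adjusted p = 0.0213 in edgeR), a call lost without 24 h replicate 1 (−0.81) or 2 (−0.75) and without 6 h replicate 1 (−0.93), 4 (−0.99) or 5 (−0.87).

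Of 13 bile transporter genes tested (median −0.13), 2 were called higher (15.4%, against 7.16% of all genes called). There was 1 called higher without 24 h replicate 1, 1 also called lower without 24 h or 6 h replicate 4, and a median above 0 without 24 h or 6 h replicate 2. Slc51b, a subunit of the basolateral bile acid exporter, stood at 30.8, 67.9, 1.62 and 1.59 CPM at 24 h and 0, 0.464 and 2.18 at 6 h, with replicates 3 and 4 inside the 6 h range. Its log2 fold change was 5.25 (SE 0.999, adjusted p = 6.18e-04 in edgeR), 4.10 without 24 h replicate 2, 6.22 without 6 h replicate 3, and 1.28 and not called without 24 h replicates 1 and 2.

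**Figure D2:**
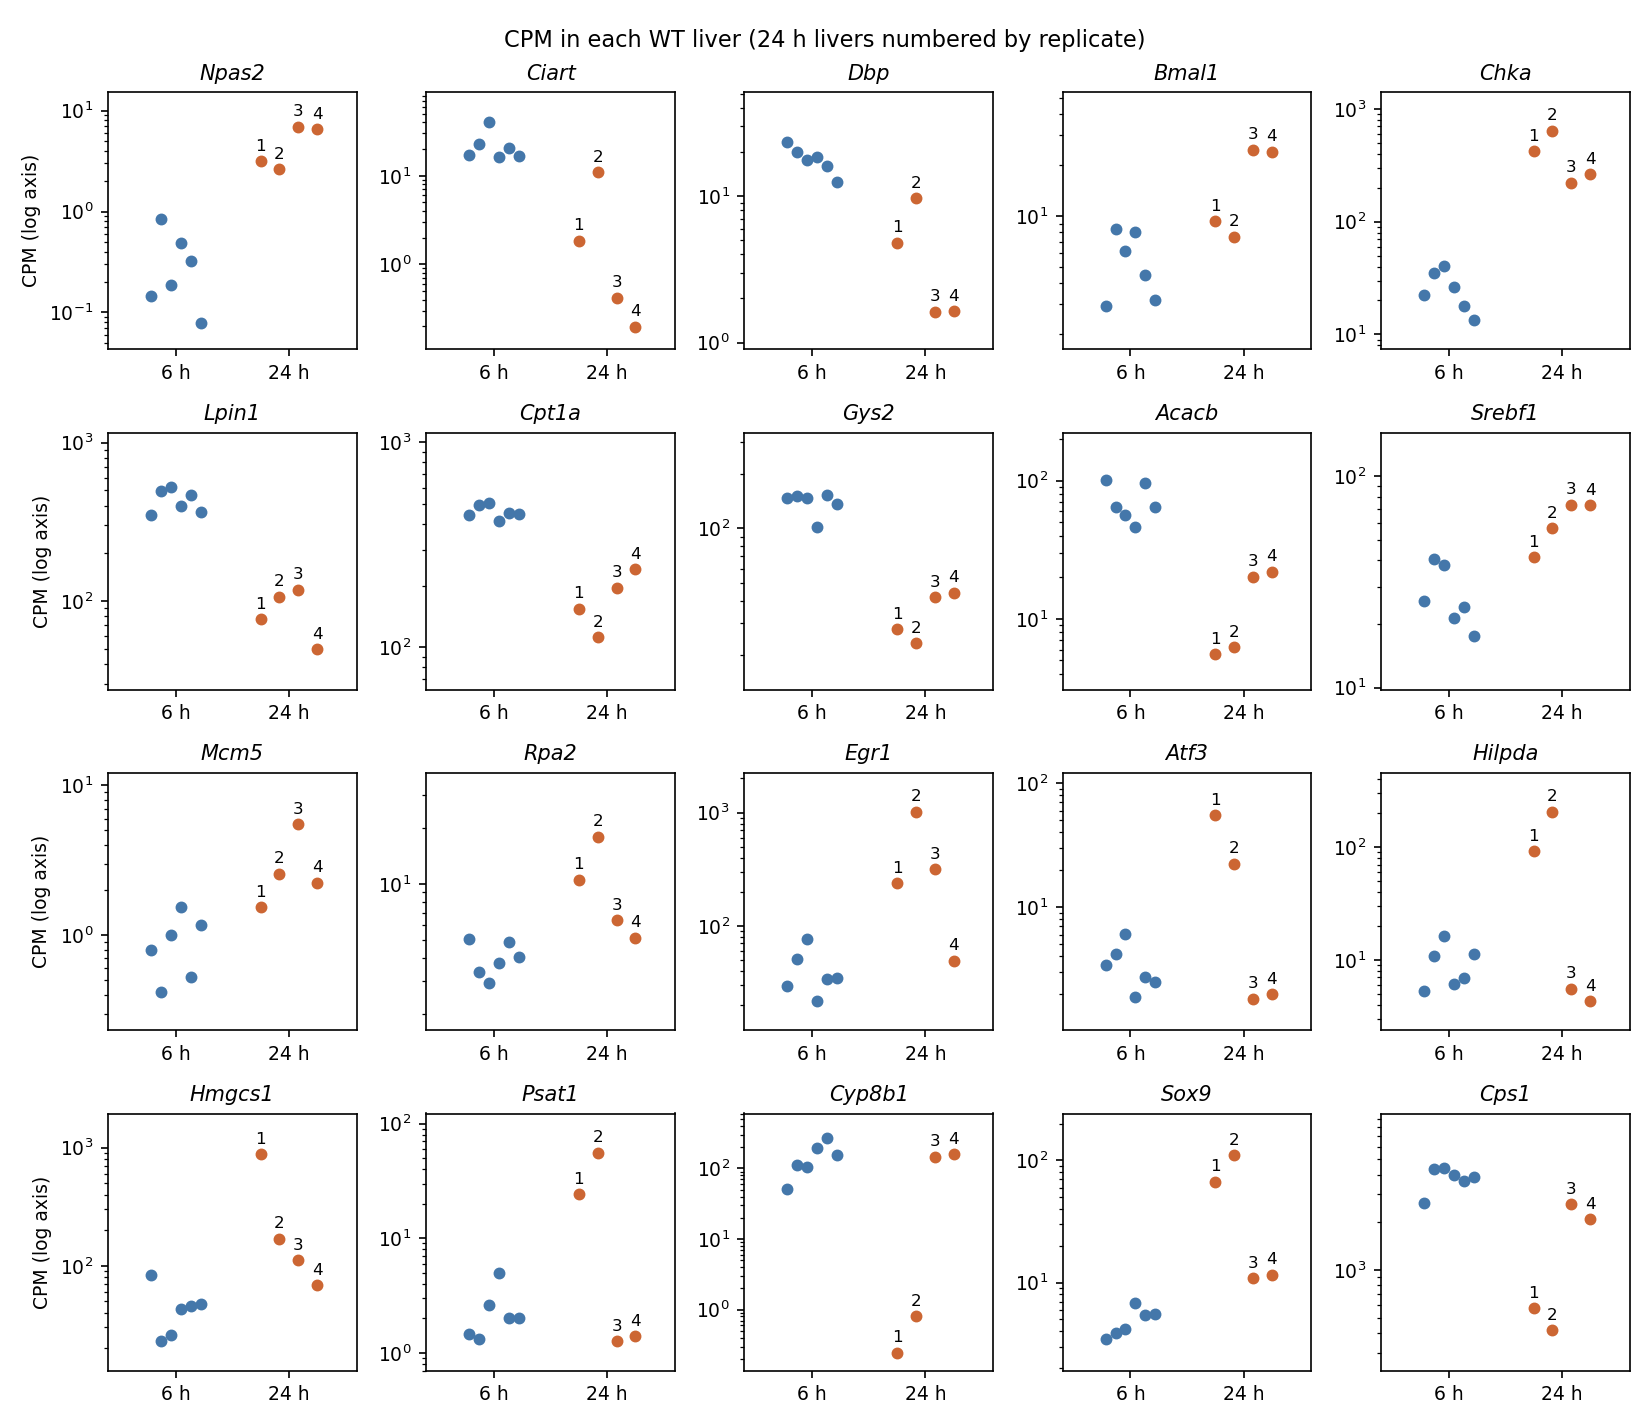
CPM of selected genes in each of the 10 WT livers, with the 24 h livers numbered by replicate.

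Genes of the mature hepatocyte were lower in part. Of 16 drug-metabolizing Cyp genes tested, 6 were called lower (median −0.79, or −0.55 without replicates 1 and 2), with 1 called without replicate 1 and 3 without replicate 2. Pericentral genes had 4 of 14 called lower (median −0.57), with 2 called lower without replicate 1 and 1 also called higher without replicate 2. Cyp2e1, an ethanol-oxidizing enzyme of the pericentral zone, stood at 466, 1185, 2072 and 2060.1 CPM at 24 h and 2784, 3947 and 5610.2 at 6 h, and Glul, the glutamine synthetase gene of the last pericentral cells, at 57.9, 136, 463 and 351 against 542, 835 and 1155. All 24 h livers were below the 6 h range for both, replicate 1 the furthest. Cyp2e1 was called lower (−1.46, SE 0.41, adjusted p = 0.0131 in edgeR), except without replicate 1 (−1.15, adjusted p = 0.0709 in edgeR). Glul was called lower at −1.76 (SE 0.45, adjusted p = 0.00790 in edgeR). Neither was called without replicates 1 and 2 (−0.95 and −1.06).

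Of 15 hepatocyte transcription factor genes (median −0.14), 2 were called lower, Ppara and Nr1h4 (13.3%, against 7.16% of all genes called). Both calls were lost without 24 h or 6 h replicate 1. That of Nr1h4 was also lost without 24 h replicate 2 or 6 h replicate 4 or 5. Hnf4a, the main regulator of hepatocyte identity, stood at 413, 324, 549 and 522 CPM at 24 h and 478, 554 and 638 at 6 h, with replicates 1 and 2 below the 6 h range, and was not called (−0.30, adjusted p = 0.255 in edgeR). Alb stood at 18910.4, 15025, 18774 and 24980.1 against 15973, 31772 and 42824, with replicate 2 below the 6 h range (−0.64, adjusted p = 0.0598 in edgeR). Afp, expressed in fetal liver, stood at 3.81, 1.66, 1.10 and 1.34 against 0.583, 0.865 and 1.97, with replicate 1 above the 6 h range (0.91, adjusted p = 0.156 in edgeR). Of 5 fetal liver genes tested, edgeR and DESeq2 called none, and 1 had an unadjusted p under 0.05 (median 0.21, or −0.16 without replicate 1). Sirt1 itself stood at 23.1, 11.3, 8.80 and 11.2 against 8.85, 11.2 and 14.05, with replicate 1 the highest and replicate 3 the lowest of the 10 livers. It was not called (0.27, adjusted p = 0.463 in edgeR) and was −0.09 without replicate 1.

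Against 7.16% of all genes called, the lists of this paragraph ranged from 0 of 7 to 2 of 13. Growth factors and receptors had 1 of 13 called higher and 1 lower (median 0.35), TGF-beta and activin genes 1 of 14 lower (median 0.32), iron genes 1 of 12 lower (median 0.24), and interferon-stimulated genes 1 of 22 higher (median −0.01). The higher growth factor call was lost and 2 were called lower without 24 h replicate 2, 2 were called higher without replicate 3 or 4, and the median was −0.29 without replicate 1. For TGF-beta and activin genes 1 was also called higher without 24 h replicate 3 or 4. The iron gene call was lost without 24 h replicate 1 or 3 or 6 h replicate 6, with 1 called higher without 24 h replicate 3, and 2 were called lower without 24 h replicate 4 or 6 h replicate 4 or 5. The interferon call was lost without 24 h replicate 3 or 4 or 6 h replicate 1, 2, 3 or 5, with 1 called lower without 24 h replicate 4. It became 3 without 24 h replicate 2, and the median was above 0 without 24 h replicate 1 or 2 or 6 h replicate 3, 4, 5 or 6, reaching 0.31. None of 7 MHC class II genes was called by edgeR or DESeq2 or reached an unadjusted p under 0.05 (median −0.45). Inhbe, an activin subunit gene of hepatocytes, stood at 22.4, 19.8, 29.3 and 39.02 CPM at 24 h and 75.3, 99.2 and 178 at 6 h, without overlap, and was called lower (−1.93, SE 0.39, adjusted p = 9.71e-04 in edgeR, −1.62 without replicates 1 and 2). Hbegf, an EGF receptor ligand gene, stood at 11.1, 26.3, 0.681 and 0.846 against 0.219, 1.08 and 1.97, with replicates 1 and 2 above the 6 h range. It was called higher (3.20, SE 0.83, adjusted p = 0.00801 in edgeR), was not called without replicate 2 (1.99, adjusted p = 0.116 in edgeR), and was −0.46 without replicates 1 and 2.

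**Figure D3:**
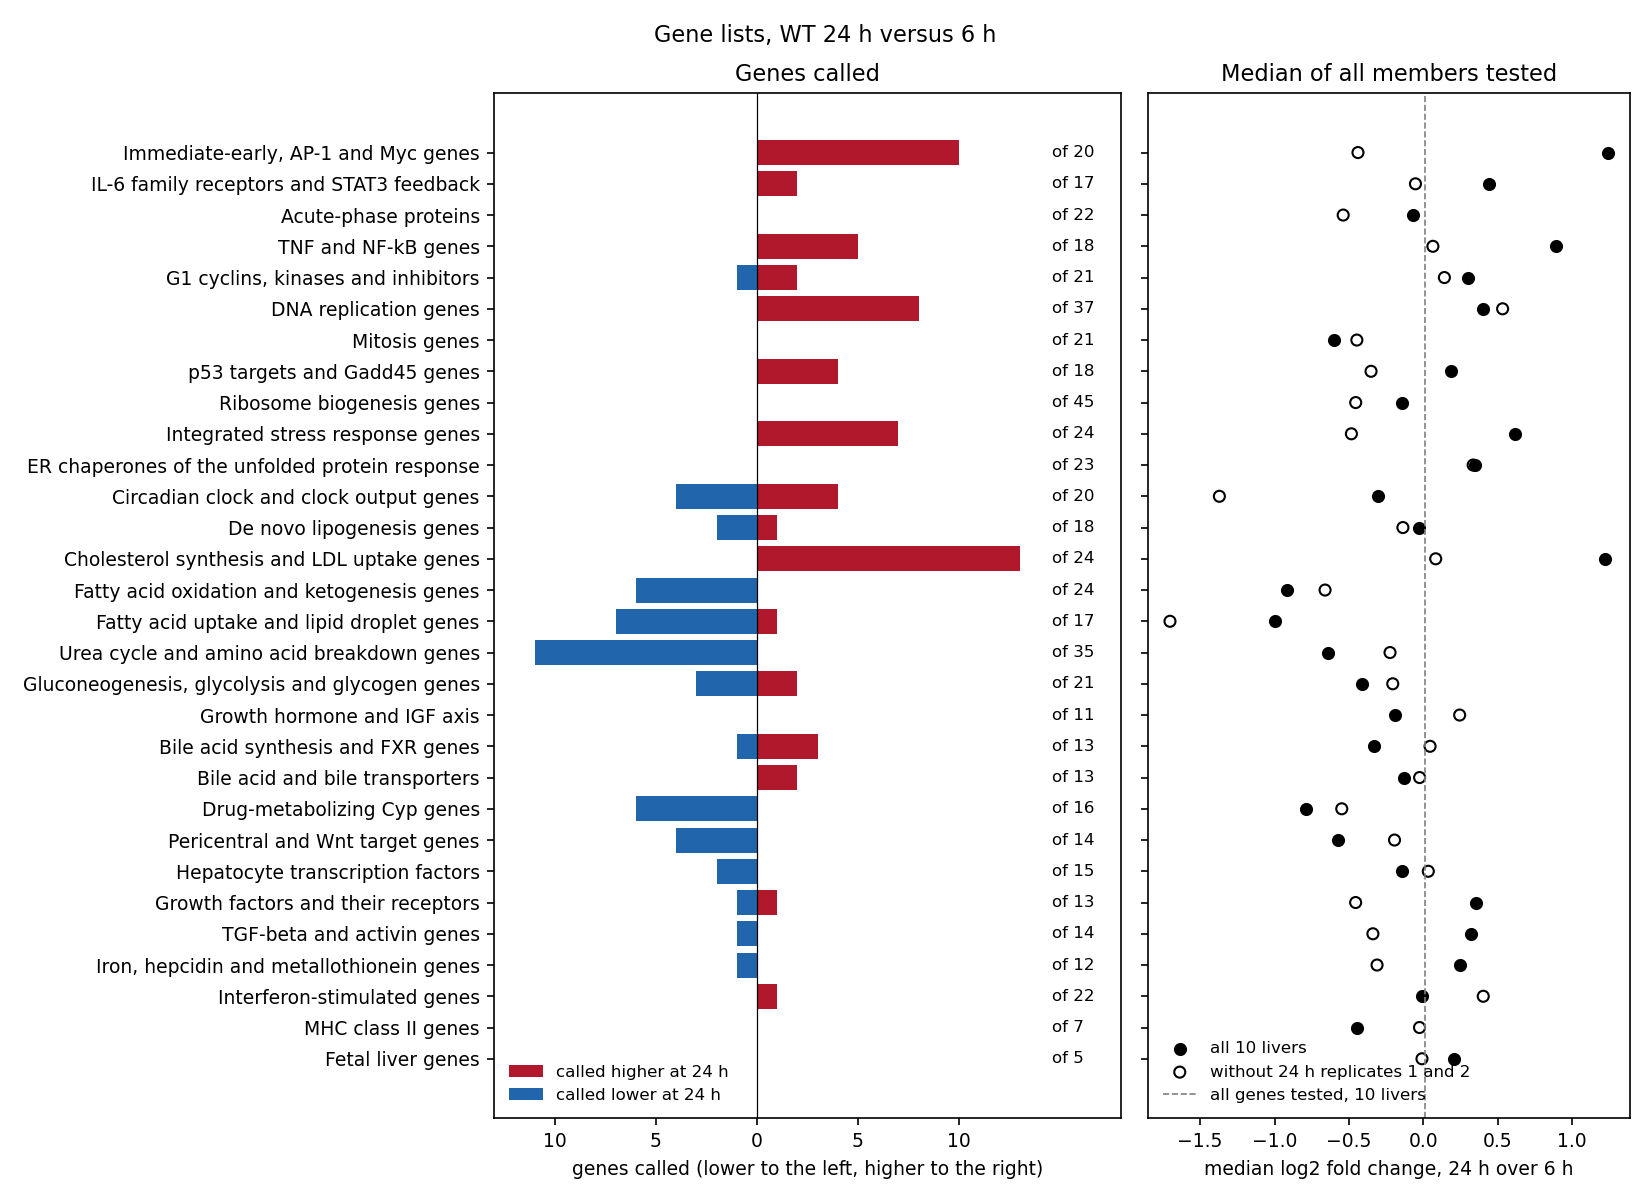
Median log2 fold change of each gene list with all 4 livers at 24 h and without replicates 1 and 2, with the numbers of genes called.

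Markers of cell types were summed in each liver, and a change in the sums was not tested. The marker given with each sum has the highest mean over the 10 livers. Of 11 neutrophil markers 8 were tested and 3 called higher (median 1.56), with 1 called without 24 h replicate 2, 5 without replicate 4, and a median of −0.86 without replicates 1 and 2. Their sum was 128, 109, 14.98 and 8.76 CPM at 24 h and 5.98, 16.1 and 60.1 at 6 h, S100a9 the highest in mean. Replicates 1 and 2 exceeded every 6 h liver and replicates 3 and 4 lay inside the 6 h range. Of 12 monocyte and macrophage markers 3 were called higher (median −0.16), with 1 called without 24 h replicate 1, 5 without replicate 3, and a median of 0.08 without 24 h replicate 1 and 0.11 without 6 h replicate 4. They had sums of 122, 72.7, 59.9 and 48.8 CPM against 39.5, 66.5 and 97.3, Lyz2 the highest in mean, though Chil3 exceeded it in 24 h replicates 1 and 2. Kupffer cell markers had 4 of 7 called lower (median −1.26), with 1 called without 24 h replicate 2 or 6 h replicate 5 or 6 and 2 without 24 h replicate 4. They had sums of 101, 21.9, 97.8 and 75.4 CPM against 59.7, 116 and 205, Clec4f the highest in mean. No marker was at 0 in all 10 livers.

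Sinusoidal endothelial markers had 3 of 14 called lower (median −0.81), with 1 called without 24 h replicate 1 or 2 and 8 without replicate 3. Their sum was 74.9, 94.4, 161 and 126 CPM at 24 h and 153, 200 and 263 at 6 h, Stab1 the highest in mean, and only replicate 3 inside the 6 h range. Cholangiocyte markers had 2 of 8 tested called higher (median 0.67), with sums of 509, 286, 79.3 and 99.5 CPM against 46.4, 58.3 and 93.4. Spp1 was the highest in mean, and replicate 3 alone fell in the 6 h range. Sox9, a transcription factor gene of the biliary lineage, stood at 66.96, 110.0, 10.9 and 11.6 CPM at 24 h and 3.43, 4.80 and 6.87 at 6 h, above the 6 h range in all 4 livers. Sox9 was called higher at 3.35 (SE 0.49, adjusted p = 3.03e-05 in edgeR), 2.63 without replicate 2, and 1.21 and not called without replicates 1 and 2. Hepatocyte markers had 3 of 10 called lower (median −0.46), or 1 without 24 h replicate 1, with sums of 79093, 61911, 66820 and 71892 CPM against 62586, 84441 and 98850 and Alb the highest in mean.

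The remaining marker lists had no gene called by edgeR or DESeq2. Of 12 stellate cell and fibroblast markers 2 had an unadjusted p under 0.05 (median −0.35), and the sums were 199, 225, 366 and 335 CPM against 250.3, 339 and 520.03, Dcn the highest in mean. Of 15 lymphocyte markers 4 could be tested and none had an unadjusted p under 0.05 (median −0.16, or 0.03 without 24 h replicate 1 and 0.23 without replicate 2). Without 24 h replicate 3 edgeR called 1 lower. Their sums were 1.05, 0.571, 4.399 and 1.74 CPM against 1.604, 1.97 and 2.68, Cd4 the highest in mean, which was at 0 in 24 h replicate 2. Of 7 red blood cell markers 5 were tested, also with none under 0.05 (median −0.36). With Hbb-bs the highest in mean, their sums were 361, 838, 269.8 and 279.9 CPM against 381, 523 and 981.

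**Figure D4:**
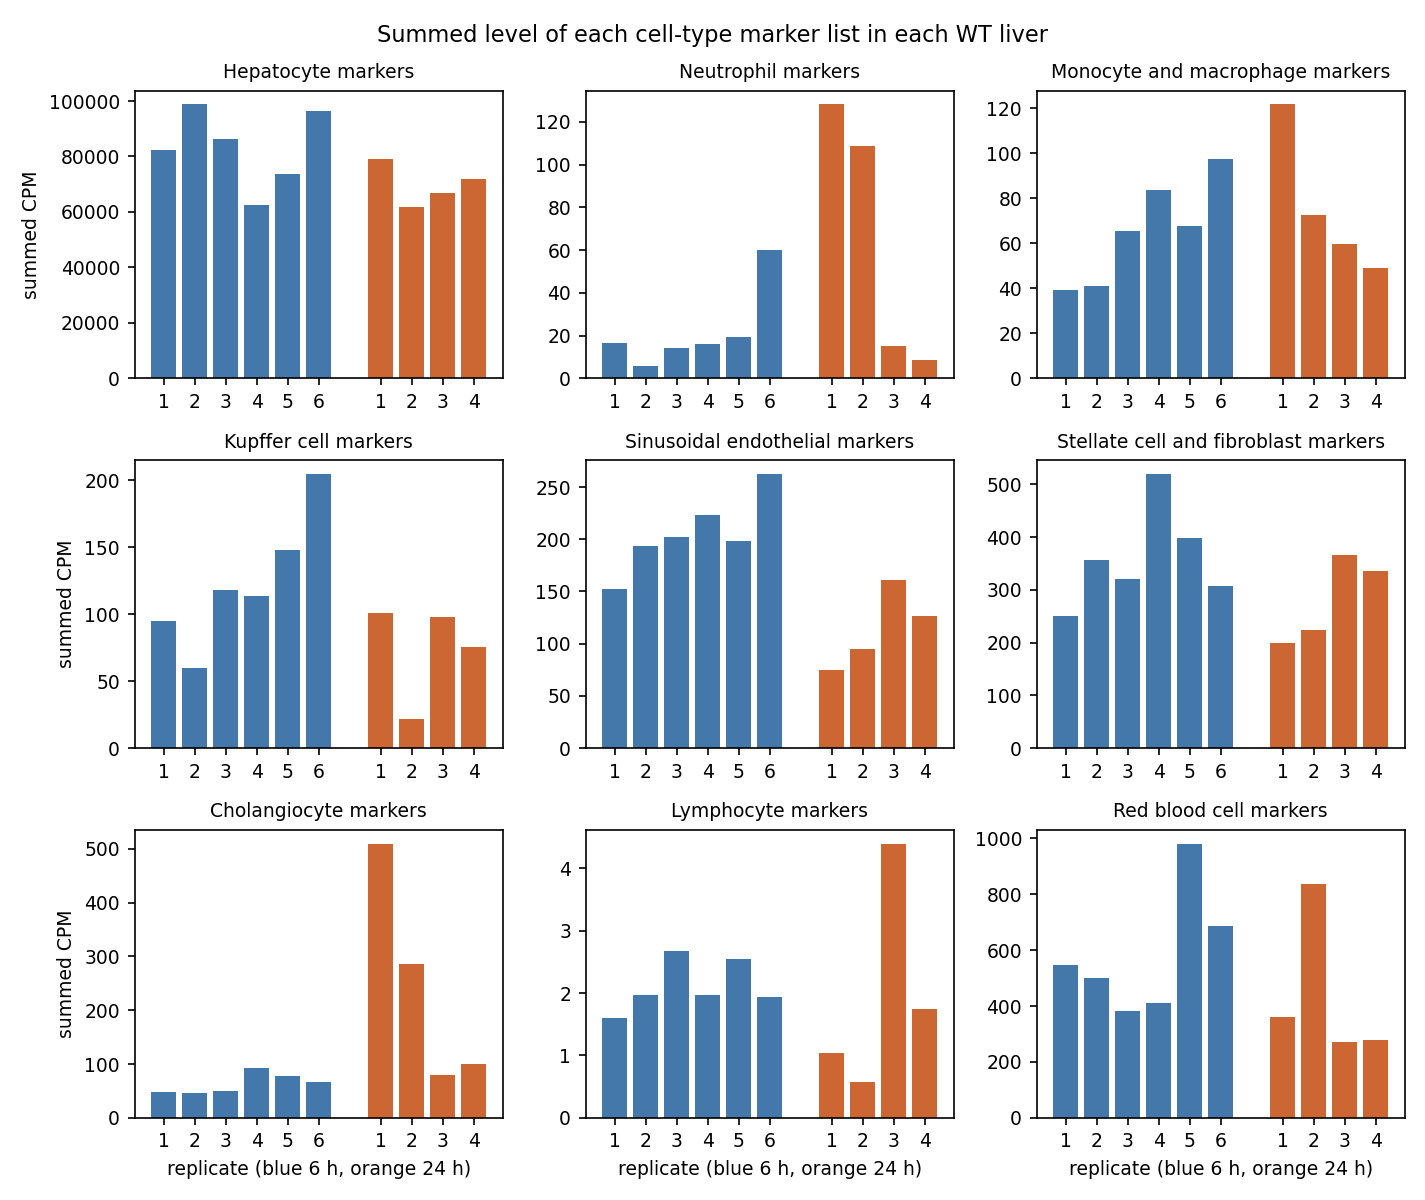
Summed CPM of the markers of each cell type in each of the 10 WT livers.

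A difference between genotypes in the 24 h versus 6 h change was tested as an interaction in edgeR. It was called for 50 of 14980 genes (0.334%), 25 in each direction, 87 had an adjusted p under 0.05, 2952 had an unadjusted p under 0.05, and DESeq2 called 301. The edgeR count moved widely with single livers. It was 128, 1, 243 and 181 without WT 24 h replicate 1, 2, 3 or 4 in turn, and 190, 30, 48, 39, 23 and 0 without WT 6 h replicates 1 to 6 in turn. Where it was 0, 2519 genes had an unadjusted p under 0.05. Without SIRTintKO 24 h replicate 5 it was 419, and without WT 24 h replicates 1 and 2 it was 559, both alternatives chosen after seeing the data. Among the genes with values given above, it was called for Lipg (2.24, adjusted p = 0.0386 in edgeR), Egr1 (−3.73, adjusted p = 0.0351 in edgeR), Gpt2 (1.504, adjusted p = 0.0351 in edgeR) and Fgfr4 (−1.27, adjusted p = 0.0387 in edgeR), each value being the SIRTintKO minus the WT log2 fold change.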

How the data were processed

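Gene-level expected counts that the authors deposited, made per their processing notes with STAR and Salmon on GRCm39 (nf-core/rnaseq per the methods), were rounded to whole numbers. The table holds 35 library columns, of which 1 matches no sample and was not used. Its gene symbols lack the letter x, and 1316 symbols (705 among tested genes) were restored from GENCODE vM21, which matched 51498 of 78298 identifiers. All 34 libraries were fitted with edgeR 4.0.16 in R 4.3.3 by group, with TMM scaling, the default expression filter and quasi-likelihood tests, at a common biological coefficient of variation of 0.302. DESeq2 1.42.0 was the second tool. Among the WT libraries at 6 h and 24 h, no 2 of a group were copies of each other (lowest chi-square per gene 21.9).

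A total of 122 genes were named by rule, which took 30 anchor genes, the 10 largest changes in each direction among called genes with a proper symbol, at least 1 CPM in the higher group and no overlap between the groups, and up to 4 called members (at least 1 CPM in the higher group) of each of 39 gene lists. Results for 4 of them are not reported here. The members and lists were chosen with earlier results of these data known. The scripts were run on simulated data with known answers before the real data. Alternatives changed the tool, scaling, filter, libraries, threshold and single livers, and those chosen after seeing the data are named as such.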

Additional observations from a re-analysis of the deposited data

Results flagged for a closer look

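In 254 groups of values, each a gene or marker sum in the WT livers of 1 time point, the end value furthest from the others was compared with the full range by Dixon's ratio, and 21 groups passed the 5% limit. About 1 in 20 would pass by chance for independent normal values, which these CPM were not shown to be. The ratio looks for 1 liver apart from the rest. A split of 2 livers against 2, as for Ier3 at 24 h (103, 182, 2.15 and 1.39 CPM), was not flagged. The flags at 24 h therefore do not measure how uneven that group was. At 24 h, 6 passed. Replicate 2 stood apart for Ciart (ratio 0.846, 10.9 CPM with the next at 1.84), Cxcl2 (0.919, 36.6 CPM with the next at 3.01), Phgdh (0.877) and the sum of red blood cell markers (0.840, 838 CPM with the next at 361). Replicate 1 stood apart for Relb (0.832) and Hmgcs1 (0.876, 886 CPM with the next at 169.6).

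At 6 h, 15 passed. Replicate 6 stood apart for Mki67 (0.848, 3.42 CPM with the next at 0.784), Igf1 (0.715), Tdo2 (0.658), Vsig4 (0.764), Wnt2 (0.695) and the sum of neutrophil markers (0.757, 60.1 CPM with the next at 19.1). Replicate 4 did so for Cyp7a1 (0.803), Psat1 (0.644), Gys2 (0.684, the lowest liver) and F13a1 (0.734). Replicate 1 did so for Socs1 (0.766), and replicate 3 for Ciart (0.719), Slc51b (0.719) and Inhbe (0.744). Replicate 2 did so for Ccnd1 (0.803, 96.4 CPM with the next at 29.03).

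The interaction of genotype and time, SIRTintKO minus WT, was called in edgeR for 4 of the named genes, at a log2 fold change of 2.24 for Lipg, −3.73 for Egr1, 1.504 for Gpt2 and −1.27 for Fgfr4. The number of interaction calls over all genes was 50, and 1 without WT 24 h replicate 2. It was 0 in edgeR without WT 6 h replicate 6 (2519 genes at an unadjusted p under 0.05), with only libraries after PHx (2224) and in glmTreat (490), so none of these 4 calls held in those 3 settings. DESeq2 called 301.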

How the results depend on the processing

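The 24 h group holds 4 livers that were not alike, the numbers of genes called depend on which of them are kept, and the cause was not tested. Of the 98 named and reported genes that were called, all kept the call in DESeq2 and under RLE scaling, 97 under upper-quartile scaling, 91 when genes with a single count or more were all tested and 81 of 94 in a fit of WT libraries only. In the 10 WT libraries at 6 h and 24 h alone 46 of 93 did, and 24 in glmTreat, which tests for a fold beyond the threshold. Genes that a filter removed got no value. Across scalings the median of all genes stayed between −0.02 and 0.01.

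Counts of genes higher and lower were 666 and 409 under RLE scaling, 597 and 433 under upper-quartile scaling, 583 and 371 with the loosest filter, and 471 and 344 in WT libraries only. They moved to 411 and 233 with at least 10 counts required in every WT library at 6 h and 24 h, 231 and 175 in the 10 WT libraries, 1505 and 963 with no fold threshold, 53 and 27 in glmTreat, 422 and 239 without WT 24 h replicate 1, and 401 and 328 without WT 24 h replicates 1 and 2. Leaving out 1 library at a time gave 422 (without WT 24 h replicate 1) to 870 (without WT 24 h replicate 3) higher and 239 (without WT 24 h replicate 1) to 513 (without WT 24 h replicate 4) lower.

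The interaction count of 50 was 301 in DESeq2, 46 under RLE scaling, 30 under upper-quartile scaling, 16 with the loosest filter, 47 under the stricter filter and 87 with no fold threshold. It was 0 in edgeR with only libraries after PHx (2224 genes at an unadjusted p under 0.05) and 0 in glmTreat (490 at an unadjusted p under 0.05). It was 128, 1, 243 and 181 without WT 24 h replicates 1 to 4 in turn, 190, 30, 23 and 0 without WT 6 h replicates 1, 2, 5 and 6, 419 without SIRTintKO 24 h replicate 5, and 559 without WT 24 h replicates 1 and 2.

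Leaving out 1 library at a time turned the sign of 7 genes that were not called and of no called gene. The lowest and highest values were −0.26 (without WT 24 h replicate 2) and 0.31 (without WT 24 h replicate 4) for Cdkn1a, −0.0676 (24 h replicate 3) and 0.54 (24 h replicate 1) for Mcm2, −0.40 (24 h replicate 2) and 0.14 (6 h replicate 6) for Saa1, and −0.0123 (24 h replicate 2) and 0.51 (24 h replicate 4) for Hspa5. They were −1.04 (24 h replicate 2) and 0.24 (24 h replicate 4) for Per1, −0.67 (24 h replicate 2) and 0.0518 (24 h replicate 3) for Nr1d1, and −0.0859 (24 h replicate 1) and 0.45 (24 h replicate 3) for Sirt1.

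Leaving out WT 24 h replicates 1 and 2 together kept the call of 38 named genes, ended that of 46 and turned the sign of 14, which were Atf3 (−0.86), Ier3 (−1.98), Fosl1 (−1.90), Socs1 (−0.32), Cxcl2 (−0.43), Tnfrsf12a (−0.61), Btg2 (−0.51), Slc7a11 (−0.61), Psat1 (−0.86), Hilpda (−0.94), Slc2a1 (−0.0158), Hbegf (−0.46), Retnlg (−0.47) and Mmp9 (−0.68). It also turned 6 genes that were not called, Cdkn1a (−0.55), Socs3 (−0.61), Lcn2 (−0.77), Hspa5 (−0.13), Cyp8b1 (0.0447) and Sirt1 (−0.17).

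Samples share replicate numbers and the labels do not say that these mark pairs. With the replicate block in the fit of the 10 WT libraries at 6 h and 24 h, edgeR called 1 gene higher and 0 lower, with 981 and 1011 at an unadjusted p under 0.05, and Cdkn1a was −0.0175 and Saa1 0.36. Correlations of livers with their own number ran from −0.12 to 0.07, and 0 of 4 correlated best with their own number.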

Other observations

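WT livers at 0 h, without surgery, are not part of the comparison, and no test against them is given. The lowest, median and highest values of the 6 livers at 0 h were 6.27, 8.61 and 14.4 CPM for Npas2, 119.7, 155 and 385 for Chka, 238, 428 and 533 for Osgin1, 0.970, 2.63 and 3.54 for Lipg, 59.96, 78.3 and 92.8 for Gys2, 0.596, 0.861 and 1.19 for Dbp, 0.300, 0.512 and 1.01 for Ciart and 2.76, 3.51 and 4.14 for Rpa2, genes chosen after their values were seen.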
